A study of Homo sapiens with 4 samples.

Results

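The expression of 40 genes of the autophagy machinery and the TFEB family was examined in LNCaP cells with and without overexpression of RRM2. The genes were listed by symbol from their known roles, and all 40 were found in a table of 17141 genes. LNCaP is an established human prostate cancer line, grown from a metastasis in a lymph node. The cells overexpressed RRM2, the small subunit of ribonucleotide reductase (LNCaP-RRM2, n = 2 libraries), or carried the empty vector (LNCaP-EV, n = 2 libraries). Per the study's methods, the stable lines that overexpress RRM2 were made with lentiviral vectors and kept under puromycin selection. The methods do not describe how the control was made or selected. Per the labels all 4 samples were grown in standard culture. The LNCaP-RRM2 group was a selected, stably transduced population. For either group, neither the labels nor the methods state if it was 1 clone or if its libraries were made from separate cultures. The p-values therefore reflect the spread between these libraries alone, and that spread may be technical.

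Autophagy encloses cytoplasm in a double membrane, the autophagosome, and delivers it to the lysosome. The ULK1 kinase complex starts the process, a lipid kinase complex built on PIK3C3 marks the membrane with PI3P, and vesicles carrying ATG9 together with the lipid-transfer proteins ATG2A and ATG2B supply lipid. A ubiquitin-like conjugation system then attaches the ATG8 proteins (LC3 and GABARAP) to the growing membrane, where cargo receptors dock, and TFEB, TFE3 and MITF are transcription factors that activate lysosomal and autophagy genes when they enter the nucleus.

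The library totals ranged from 26601061 to 32601519 counts. RRM2 itself was 318.3 and 342.6 CPM in LNCaP-EV and 9291 and 8979 CPM in LNCaP-RRM2, where CPM is counts divided by a common library total after TMM scaling, which evens out library composition. The 4 markers of the line that were read (KLK3, KLK2, FOLH1 and TMPRSS2) were all present, with summed levels of 4666 and 4481 CPM in LNCaP-EV and 7434 and 7789 CPM in LNCaP-RRM2. Of other cell types, 1 of 4 blood markers (LYZ) was listed and reached at most 0.479 summed CPM. Of 2 endothelial markers looked up, 0 were among the genes listed. Of the fibroblast markers, 3 of 4 summed to 12.1 and 7.97 CPM in LNCaP-EV and 34.7 and 26.0 CPM in LNCaP-RRM2, mostly from COL1A1. The part of these markers in the results below was not tested, and in bulk RNA fewer cells of a type and less RNA per cell cannot be told apart.

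Most of the 40 genes differed little between the groups. ATG9B stood at 7.83-fold and ATG9A at 1.70-fold their LNCaP-EV levels, OPTN was 1.52-fold higher, GABARAP was 1.55-fold lower and ATG3 was 1.51-fold lower. These 5 genes were called by edgeR's quasi-likelihood test over 15162 genes, where a call needed both an adjusted p (Benjamini-Hochberg) under 0.05 and a difference of more than 1.5-fold. The 3 higher calls were 7.5% of the list, against 12.5% of all genes tested, and the 2 lower calls were 5.0%, against 7.96%. The remaining 35 genes were not called. Without the fold limit 5 genes were higher (12.5%, against 17.8% of all genes) and 8 were lower (8 of 40, against 24.4%). The groups overlapped in 7 genes of the list, and in 3740 of all 15162 genes tested. Where they did not, LNCaP-RRM2 was the higher group in 10 genes (25.0% of the list, against 34.5% of all genes) and the lower group in 23 (57.5%, against 40.9%). The median log2 fold change (LNCaP-RRM2 over LNCaP-EV) was -0.145 over the 40 genes and -0.03 over all genes tested, and 32 of the 40 lay within the fold limit. The summed level of the 40 genes was 2636 and 2579 CPM in LNCaP-EV and 2495 and 2472 CPM in LNCaP-RRM2.

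The calls were sensitive to single libraries and to scaling. ATG9B was the only member called under every alternative run. When LNCaP-EV replicate 1 was left out, 8 members were called higher and 2 lower, and when replicate 2 of that group was left out, 3 were higher and 0 lower (DESeq2 and limma-voom on all libraries called 1 and 2 lower, and 12 lower members had an unadjusted p below 0.05 without that library). Leaving out LNCaP-RRM2 replicate 1 gave 1 higher and 0 lower (4 lower members with an unadjusted p below 0.05), and leaving out its replicate 2 gave 1 of each. Over all genes tested, calls in both directions also rose without LNCaP-EV replicate 1 and fell without either LNCaP-RRM2 library. These shifts in number were therefore not particular to the members. The share of all genes was not taken for the runs with a library left out, so their member counts have no background beside them. Without an LNCaP-RRM2 library the spread was taken from the LNCaP-EV pair alone, whose replicates differed more. Of all called genes 61.1% were higher, and this share was 72.4% with total counts only, 75.0% with upper-quartile factors, 71.6% with a stricter filter on low counts and 51.4% after removal of a trend with GC content.

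**Figure D1:**
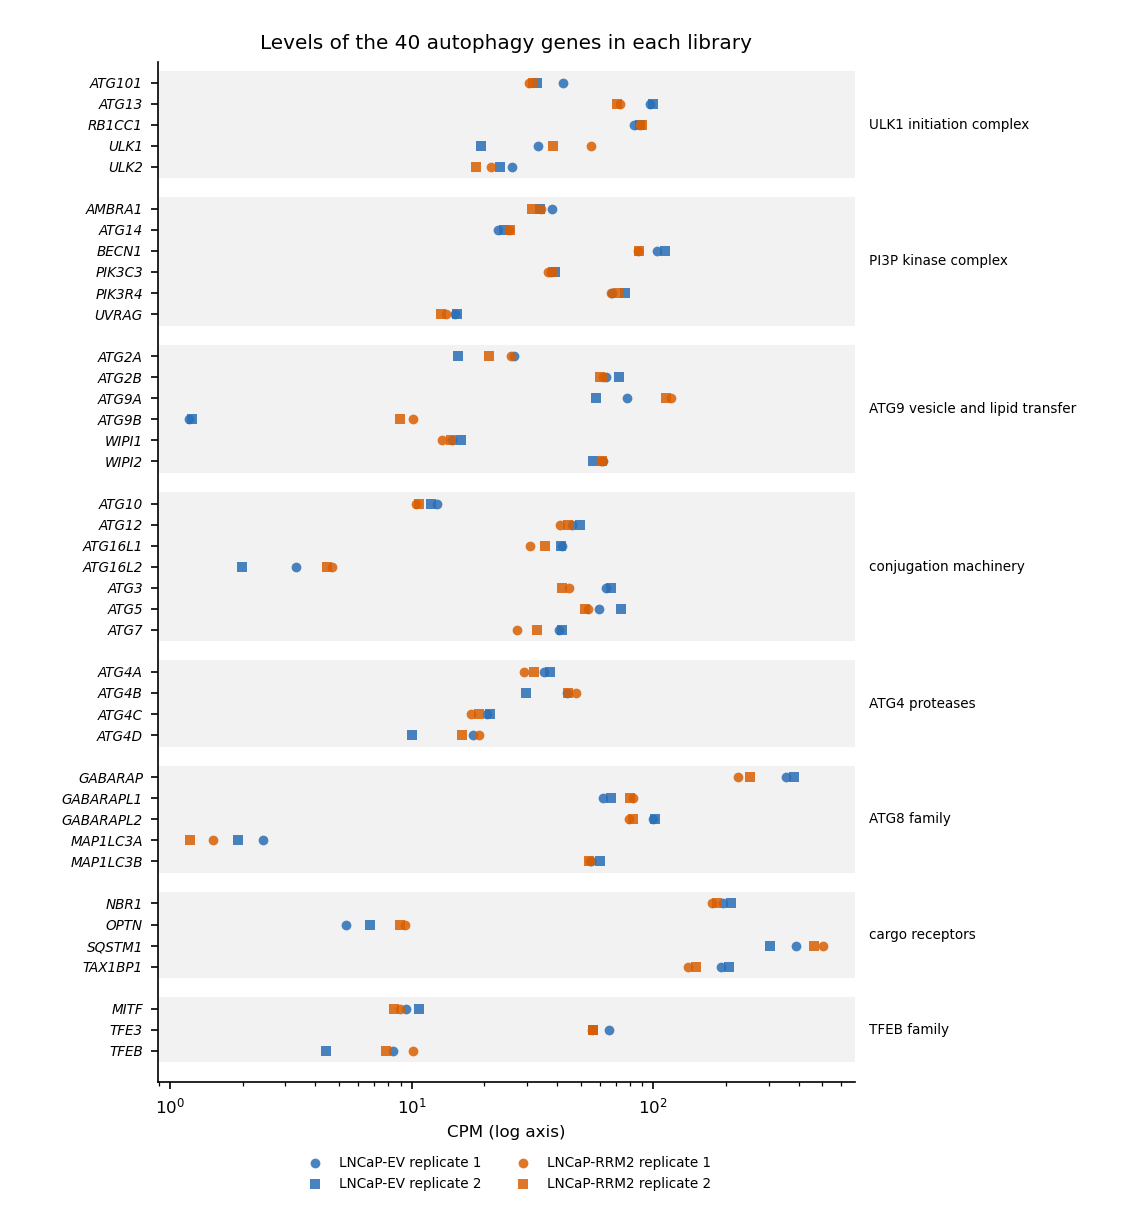
Level of each of the 40 genes in each library, in CPM on a log axis, grouped by role. Blue points are LNCaP-EV and orange points LNCaP-RRM2, and circles and squares are replicates 1 and 2. In most rows the 4 points lie close together, while for ATG9B the LNCaP-EV points (1.20 and 1.24) lie far to the left of the LNCaP-RRM2 points (10.1 and 8.99).

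**Figure D2:**
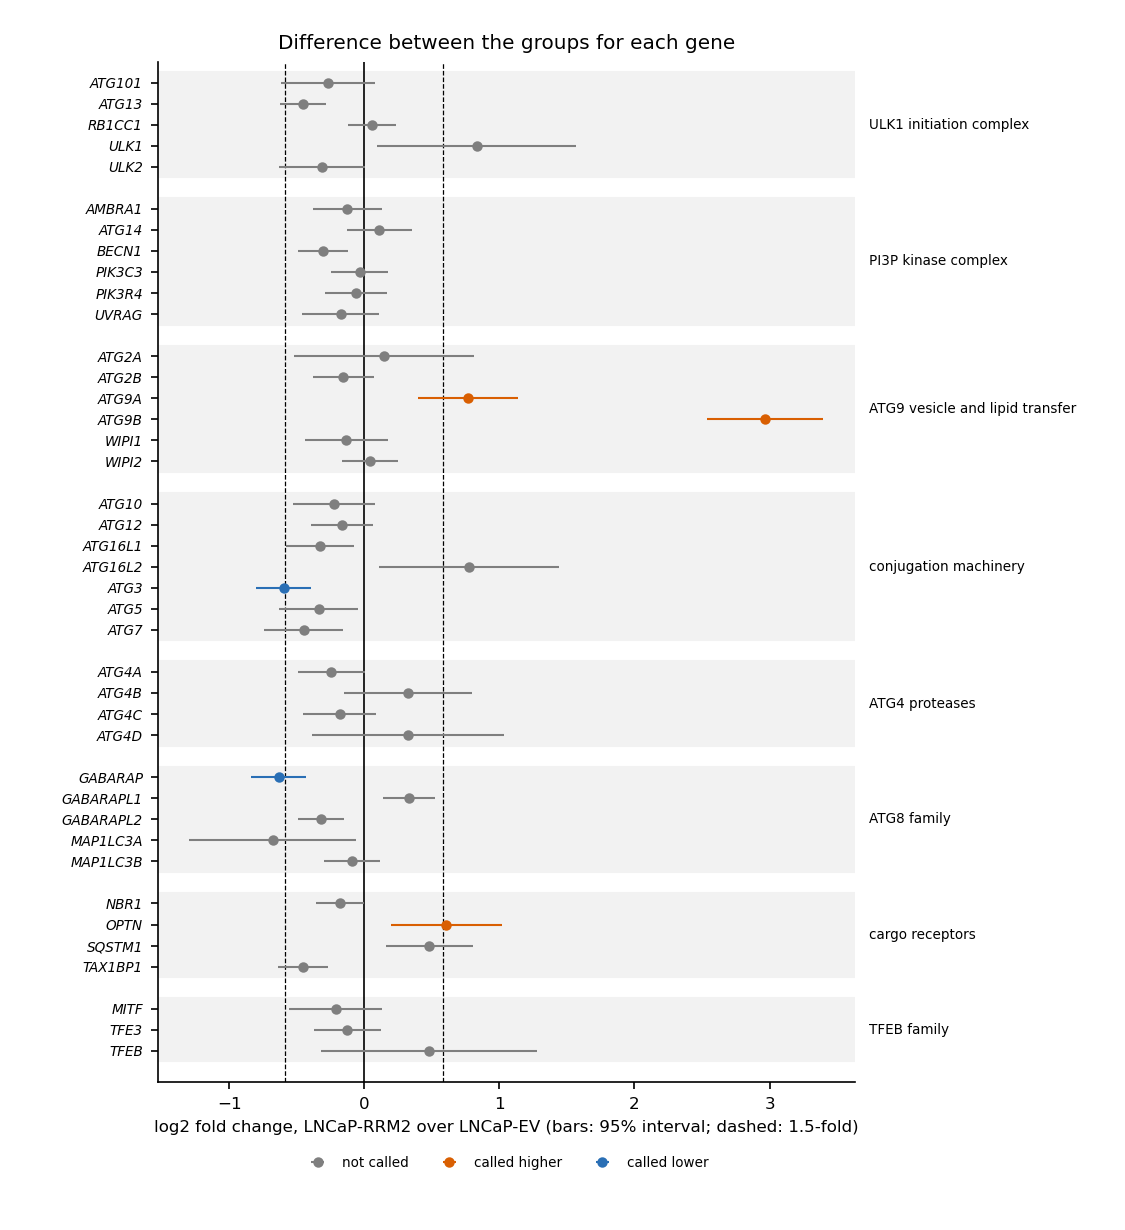
Log2 fold change of each gene, LNCaP-RRM2 over LNCaP-EV, with its 95% interval from edgeR. Dashed lines mark the 1.5-fold limit, orange and blue points are genes called higher and lower, and grey points were not called. ATG9B (2.97) stands apart from the other genes, which lie between -0.68 and 0.83.

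Of the TFEB family, no member passed the test. Its 3 genes had an unadjusted p of 0.05 or more in edgeR, and neither DESeq2 nor limma-voom called any. TFEB, the best studied regulator of the lysosomal and autophagy programme, was 8.38 and 4.42 CPM in LNCaP-EV and 10.1 and 7.85 CPM in LNCaP-RRM2. The LNCaP-EV libraries differed from each other by 0.92 on the log2 scale, and the groups overlapped. Its log2 fold change was 0.48 (95% interval -0.32 to 1.28, edgeR adjusted p = 0.27), and without LNCaP-EV replicate 1 it was 1.01 and called (adjusted p = 0.00186). TFE3, which shares the TFEB binding site, was 65.9 and 56.3 CPM in LNCaP-EV and 55.9 and 56.2 CPM in LNCaP-RRM2, a log2 fold change of -0.12 (95% interval -0.37 to 0.12). After removal of each library's trend with GC content it was -0.52 (adjusted p = 0.000658), past the p threshold and under the fold limit, and TFEB was 0.21 (adjusted p = 0.375). MITF, known as the melanocyte lineage factor, was 9.49 and 10.7 CPM against 8.96 and 8.47 CPM (log2 fold change -0.21, 95% interval -0.56 to 0.13). Per kilobase of the longest transcript, TFE3 was the most abundant of the family, at 17.9 CPM per kb in LNCaP-EV, against 2.47 for TFEB and 2.10 for MITF.

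TFEB, TFE3 and MITF bind the E-box CACGTG, and the longer palindrome TCACGTGA lies at the core of the element known from lysosomal promoters. Promoter windows from RefSeq (GRCh38.p14, 250 bases before to 50 after each start) covered 36 of the 40 genes in 49 windows. RB1CC1, UVRAG, MAP1LC3A and ATG4D had none in the table used. CACGTG, which reads the same on both strands, was found in 7.26% of all 35116 windows and in the windows of 2 of the 36 genes, ATG3 and ATG14. TCACGTGA, which contains CACGTG, was found in 0.98% of all windows and among these genes in ATG3. Both windows are shown because they hold these matches, in capitals. In ATG3 (chr3:112561913-112562212, minus strand) CACGTG began 18 bases before and 5 bases after the start, the second within TCACGTGA, and in ATG14 (chr14:55411781-55412080, minus strand) it began 21 bases before the start.
ATG3: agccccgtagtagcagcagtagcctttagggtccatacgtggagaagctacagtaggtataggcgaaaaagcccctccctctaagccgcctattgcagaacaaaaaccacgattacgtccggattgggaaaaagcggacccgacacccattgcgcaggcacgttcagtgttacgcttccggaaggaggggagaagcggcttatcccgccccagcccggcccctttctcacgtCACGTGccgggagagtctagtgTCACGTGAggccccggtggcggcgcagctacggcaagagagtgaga
ATG14: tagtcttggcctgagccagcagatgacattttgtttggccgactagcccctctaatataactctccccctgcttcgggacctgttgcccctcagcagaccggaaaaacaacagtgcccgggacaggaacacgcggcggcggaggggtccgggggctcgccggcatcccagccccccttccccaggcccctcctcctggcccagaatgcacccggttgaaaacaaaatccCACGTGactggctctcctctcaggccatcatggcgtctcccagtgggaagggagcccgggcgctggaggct
A match is a description of these letters and not of binding. ATG3 was called lower (given with the conjugation genes), while ATG14 had a log2 fold change of 0.11 (95% interval -0.13 to 0.35).

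In the ULK1 initiation complex no gene was called (edgeR, DESeq2 and limma-voom called 0 of 5). In edgeR 2 of 5 had an unadjusted p below 0.05, a threshold at which the share of all genes was not taken. ULK1, the kinase, was 33.3 and 19.4 CPM in LNCaP-EV and 55.5 and 38.3 CPM in LNCaP-RRM2. All LNCaP-RRM2 values lay above the LNCaP-EV values, but the replicates of each group differed widely. The log2 fold change was 0.83 (SE 0.30, edgeR adjusted p = 0.0708), and it was 1.26 and called without LNCaP-EV replicate 1 (adjusted p = 0.000131). With all libraries it was also called with the replicate number as a block (0.86, adjusted p = 0.000643), with DESeq2 size factors (adjusted p = 0.0141), total counts (0.0426) or upper-quartile factors (0.0286), and with no filter (0.0228) or the stricter filter (0.0365). After removal of the GC trend it was 0.25, below the fold limit. ULK2, its paralogue, had a log2 fold change of -0.31 (adjusted p = 0.099). ATG13, the regulatory subunit that links the kinase to the rest of the complex, was 97.1 and 99.6 CPM in LNCaP-EV and 72.9 and 71.0 CPM in LNCaP-RRM2. Its replicates were close, and its log2 fold change of -0.45 (SE 0.07, edgeR adjusted p = 0.00688) passed the p threshold but not the fold limit. The scaffold RB1CC1 had a log2 fold change of 0.05 (95% interval -0.12 to 0.23). ATG101, the partner that stabilises ATG13, was 42.3 and 32.9 CPM against 30.7 and 31.8 CPM, a log2 fold change of -0.27 (adjusted p = 0.173) that became -0.65 and was called after removal of the GC trend.

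The PI3P kinase complex differed little. Its 6 genes had log2 fold changes between -0.31 and 0.11, none was called by edgeR, DESeq2 or limma-voom, and 1 had an unadjusted p below 0.05. That gene was BECN1, the scaffold on which the complex assembles, at 103.1 and 111.4 CPM in LNCaP-EV and 86.4 and 87.1 CPM in LNCaP-RRM2 (log2 fold change -0.31, SE 0.07, edgeR adjusted p = 0.0229). The change lay within the fold limit. The lipid kinase PIK3C3 (37.8 and 39.3 against 36.8 and 38.4 CPM) and its regulatory subunit PIK3R4 (67.7 and 76.7 against 67.0 and 71.2 CPM) overlapped between the groups, with 95% intervals of -0.25 to 0.18 and -0.29 to 0.17 on the log2 scale. UVRAG, which replaces ATG14 in the endosomal form of the complex, and AMBRA1, a Beclin 1 partner, had log2 fold changes of -0.17 and -0.12 (adjusted p = 0.26 and 0.363).

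The ATG9 and lipid-transfer genes held the largest difference. ATG9A and ATG9B encode transmembrane lipid scramblases carried on small vesicles. ATG9B had 38 and 33 counts in LNCaP-EV and 275 and 245 counts in LNCaP-RRM2, or 1.20 and 1.24 CPM against 10.1 and 8.99 CPM. The groups did not overlap and the replicates of each group were close. The means were 1.22 ± 0.023 and 9.56 ± 0.812 CPM (SD, n = 2), a log2 fold change of 2.97 (SE 0.17, edgeR adjusted p = 0.00194). It was called without each library in turn (2.87 to 3.05) and after removal of the GC trend (2.44). ATG9A was 78.1 and 57.7 CPM in LNCaP-EV and 118.6 and 112.8 CPM in LNCaP-RRM2. The groups did not overlap, though the LNCaP-EV libraries lay apart. The means were 67.9 ± 14.4 and 115.7 ± 4.13 CPM (SD, n = 2), a log2 fold change of 0.77 (SE 0.15, edgeR adjusted p = 0.0127). The call was lost without LNCaP-RRM2 replicate 1 (0.73, adjusted p = 0.082) or 2 (0.80, adjusted p = 0.0644), and after removal of the GC trend the value fell below the fold limit (0.39, adjusted p = 0.000289).

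ATG9A remained the more abundant paralogue in every library. Per kilobase of the longest transcript it was 16.9 CPM per kb in LNCaP-EV and 28.7 in LNCaP-RRM2, against 0.269 and 2.11 for ATG9B. ATG9B made up 1.52% (exact Clopper-Pearson 95% interval 1.08 to 2.08) and 2.10% (1.45 to 2.93) of the counts of the pair in LNCaP-EV. In LNCaP-RRM2 it made up 7.87% (7.0 to 8.8) and 7.38% (6.5 to 8.3). The intervals cover counting error only. The group means were 1.81 ± 0.411% and 7.63 ± 0.347% (SD, n = 2), and the shares did not overlap.

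ATG9B (minus strand, chr7:151012209-151024499 in GRCh38, GENCODE 29) shares 662 exonic bases with NOS3 on the opposite strand, 12.6% of its 5239 exonic bases. NOS3, endothelial nitric oxide synthase, was 7.24 and 5.65 CPM in LNCaP-EV and 39.7 and 30.9 CPM in LNCaP-RRM2. This was a log2 fold change of 2.45 (SE 0.19, edgeR adjusted p = 0.00246), so both genes of the overlapping pair were higher. The deposited counts of both genes were not whole in any of the 4 libraries, but their sums were whole within 0.02 in all 4 (267, 184, 1352 and 1087 counts), so the counting had divided reads between them. ATG9B took 14.2% and 17.9% of these sums in LNCaP-EV, against 20.3% and 22.5% in LNCaP-RRM2, so these shares did not overlap between the groups. Their exact 95% intervals were 10.3 to 19.0 and 12.7 to 24.3 in LNCaP-EV and 18.2 to 22.6 and 20.1 to 25.1 in LNCaP-RRM2, and those of LNCaP-EV replicate 1 and LNCaP-RRM2 replicate 2 were separate. Counted as 1 locus, the pair was 8.45 and 6.89 CPM against 49.8 and 39.9 CPM, a log2 fold change of 2.55 (SE 0.17, edgeR adjusted p = 0.00209). The use of strand in the counting is not stated, so how much of the ATG9B difference came from reads of NOS3 cannot be told apart here.

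**Figure D3:**
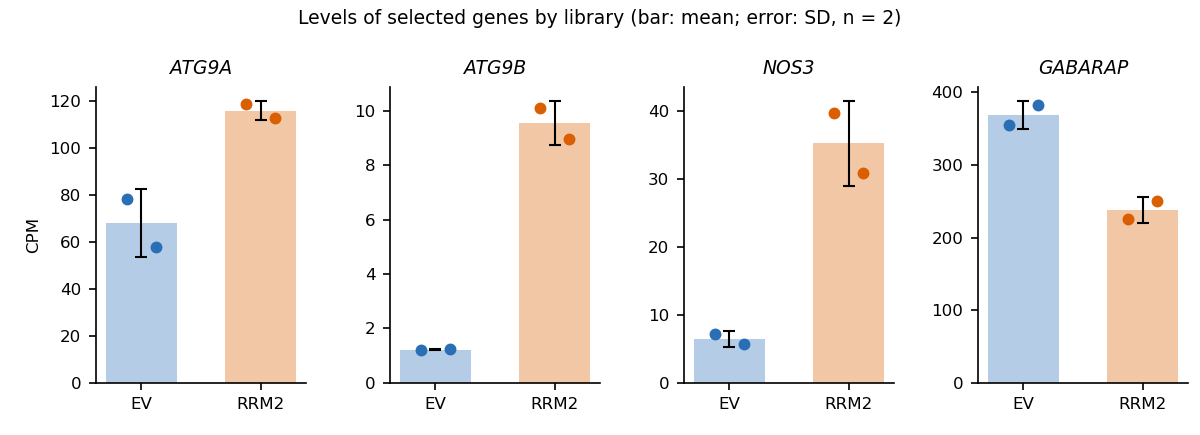
Levels of ATG9A, ATG9B, NOS3 and GABARAP in CPM on linear axes from 0. Points are libraries, bars the mean of each group and error bars the SD (n = 2). ATG9B and its overlapping partner NOS3 are both higher in LNCaP-RRM2 (EV means 1.22 and 6.45, RRM2 means 9.56 and 35.3), and GABARAP is lower (368.7 against 237.7).

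The promoter windows of the paralogues are shown because these were the 2 genes of the group that were called. They differ in base composition. The ATG9B window (chr7:151024450-151024749, minus strand) held 1 CpG dinucleotide, the lowest among the 36 genes when each was taken at its richest window. The next lowest, BECN1, had 12, and the median of the 36 genes was 27.5. The median of all windows was 14, but it counts every window of a gene and not only the richest, so it is not a like measure. The ATG9A window (chr2:219229587-219229886, minus strand) held 31. Neither held CACGTG, so no capitals are marked.
ATG9B: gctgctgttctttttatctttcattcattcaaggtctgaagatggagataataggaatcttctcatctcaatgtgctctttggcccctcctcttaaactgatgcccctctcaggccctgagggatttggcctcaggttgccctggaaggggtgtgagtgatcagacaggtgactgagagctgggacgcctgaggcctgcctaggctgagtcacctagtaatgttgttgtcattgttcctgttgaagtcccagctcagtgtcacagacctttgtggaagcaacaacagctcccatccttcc
ATG9A: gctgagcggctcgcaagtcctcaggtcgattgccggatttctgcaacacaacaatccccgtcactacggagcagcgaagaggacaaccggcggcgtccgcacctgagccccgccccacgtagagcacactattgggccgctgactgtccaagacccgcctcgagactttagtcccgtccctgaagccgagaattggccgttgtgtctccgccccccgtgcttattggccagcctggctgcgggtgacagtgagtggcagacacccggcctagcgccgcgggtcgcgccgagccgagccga
The lipid-transfer proteins ATG2A and ATG2B and the PI3P-binding proteins WIPI1 and WIPI2, which recruit them, were not called. ATG2A was 26.6 and 15.5 CPM against 25.8 and 20.9 CPM, with overlapping groups, and its log2 fold change was 0.15 (95% interval -0.52 to 0.81) and -0.42 after removal of the GC trend. ATG2B, WIPI1 and WIPI2 had log2 fold changes of -0.16, -0.13 and 0.04.

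The conjugation machinery had lower values in 6 of its 7 genes, with no overlap between the groups in any of these 6 (85.7%, against 40.9% of all genes). The median log2 fold change of the 7 genes was -0.33. The 6 lower genes had a transcript GC content of 37.5% to 50.8%, and the higher gene, ATG16L2, had 62.9%. Among all genes tested, the group difference had a median of -0.22 at about 37.2% GC and -0.09 at about 50.6%. Once each library's GC trend was taken out, the 7 genes had a median of -0.23, against -0.11 for all genes. How much of the lower values came with GC content was not tested. ATG3, the E2-like enzyme that attaches ATG8 proteins to lipid, was 64.0 and 66.8 CPM in LNCaP-EV and 44.6 and 41.9 CPM in LNCaP-RRM2. The means were 65.4 ± 2.03 and 43.2 ± 1.94 CPM (SD, n = 2), and the log2 fold change of -0.60 (SE 0.08, edgeR adjusted p = 0.00546) lay just past the fold limit. The call was lost on the p threshold without LNCaP-RRM2 replicate 1 (-0.65) or 2 (-0.56, also under the fold limit). Without LNCaP-EV replicate 2 the log2 fold change was -0.52, under the limit. It also lay under the limit with DESeq2 (-0.57), with 4 other settings of scaling or filter (-0.56 to -0.50) and after removal of the GC trend (-0.50). ATG7, the E1-like enzyme that activates both ATG12 and the ATG8 proteins, was 40.6 and 41.7 CPM against 27.4 and 33.0 CPM (log2 fold change -0.45, edgeR adjusted p = 0.0297, under the fold limit). ATG5, ATG12 and ATG16L1 form the E3-like complex, and ATG10 is the E2-like enzyme for ATG12. Their log2 fold changes were -0.34, -0.16, -0.33 and -0.23, and of these only ATG16L1 passed the p threshold (edgeR adjusted p = 0.0476), under the fold limit. ATG16L2, a paralogue of ATG16L1, went the other way, at 3.32 and 1.98 CPM in LNCaP-EV and 4.68 and 4.47 CPM in LNCaP-RRM2. Its log2 fold change of 0.78 (SE 0.27) missed the p threshold (edgeR adjusted p = 0.0637), and it was 1.19 and called without LNCaP-EV replicate 1 (adjusted p = 0.00139). It was also called with the replicate block (0.80, adjusted p = 0.0229), DESeq2 size factors (adjusted p = 0.0222), total counts (0.0414), upper-quartile factors (0.031) and no filter (0.0317), and after removal of the GC trend it was 0.27.

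The ATG4 proteases trim ATG8 proteins before conjugation and free them from membranes afterwards. None was called by edgeR, DESeq2 or limma-voom, and 0 of 4 had an unadjusted p below 0.05 in edgeR. ATG4B, the most active of them, was 43.9 and 29.6 CPM in LNCaP-EV and 47.7 and 44.3 CPM in LNCaP-RRM2 (log2 fold change 0.32, 95% interval -0.15 to 0.80). ATG4D was 18.0 and 9.99 CPM against 19.1 and 16.1 CPM (0.33, 95% interval -0.39 to 1.04). Both were called higher without LNCaP-EV replicate 1 (0.62 and 0.80, adjusted p = 0.000239 and 0.00128), and both were negative after removal of the GC trend (-0.11 and -0.27). The median of all genes tested was -0.11 after that removal, so ATG4B lay at this median. ATG4A and ATG4C had log2 fold changes of -0.24 and -0.18.

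The 5 ATG8 genes did not move together. GABARAP, the founding member of its subfamily, was 355.2 and 382.2 CPM in LNCaP-EV and 225.0 and 250.4 CPM in LNCaP-RRM2. The groups lay well apart, with means of 368.7 ± 19.1 and 237.7 ± 18.0 CPM (SD, n = 2) and a log2 fold change of -0.63 (SE 0.08, edgeR adjusted p = 0.00476). It was under the fold limit without LNCaP-EV replicate 2 (-0.53), with total counts only (-0.57), with upper-quartile factors (-0.56) and with the stricter filter (-0.54). Without LNCaP-RRM2 replicate 1 it was -0.56, under the fold limit, and it missed the p threshold. GABARAPL2 was 99.5 and 101.3 CPM against 79.0 and 82.1 CPM (log2 fold change -0.32, edgeR adjusted p = 0.0168). GABARAPL1 was 62.1 and 67.0 CPM against 82.4 and 80.3 CPM (0.33, adjusted p = 0.0211). Both passed the p threshold in opposite directions and stayed within the fold limit. MAP1LC3B, which encodes the LC3 protein used as the standard autophagosome marker, was 55.4 and 60.4 CPM against 54.6 and 54.1 CPM (log2 fold change -0.09, 95% interval -0.30 to 0.12). MAP1LC3A was 2.44 and 1.91 CPM against 1.51 and 1.21 CPM, and its log2 fold change of -0.68 (SE 0.25) missed the p threshold (edgeR adjusted p = 0.0745) but became -1.28 and was called after removal of the GC trend. MAP1LC3B2, a near-identical copy of MAP1LC3B, was counted as a gene of its own (-0.42, adjusted p = 0.0618), so the division of reads between them is uncertain.

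GABARAP took the largest part of the ATG8 counts in each library. Its share was 61.8% (exact 95% interval 61.1 to 62.5) and 62.4% (61.6 to 63.1) in LNCaP-EV, against 50.8% (49.9 to 51.7) and 53.5% (52.6 to 54.4) in LNCaP-RRM2. The shares did not overlap. Per kilobase of the longest transcript, GABARAP was 225.6 CPM per kb in LNCaP-EV and 145.5 in LNCaP-RRM2, followed by GABARAPL2 (100.2 and 80.4), GABARAPL1 (28.1 and 35.5), MAP1LC3B (21.5 and 20.2) and MAP1LC3A (1.38 and 0.865). GABARAPL1 and MAP1LC3B lay closest to each other in this order in LNCaP-EV. GABARAP shares 30.5% of its exonic bases with a second gene model on the same strand that was not analysed here, and ATG9A shares 43.5% of its own with another.

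The cargo receptors link ubiquitinated cargo to the ATG8 proteins. OPTN, a receptor known for damaged mitochondria and bacteria, was 5.35 and 6.70 CPM in LNCaP-EV and 9.40 and 8.91 CPM in LNCaP-RRM2. The groups did not overlap, with means of 6.02 ± 0.957 and 9.15 ± 0.343 CPM (SD, n = 2) and a log2 fold change of 0.61 (SE 0.16, edgeR adjusted p = 0.0333). The call was lost without LNCaP-EV replicate 1 (0.44, adjusted p = 0.0523). It was also lost on the p threshold without LNCaP-RRM2 replicate 1 (0.56, also under the fold limit) or 2 (0.64). It held after removal of the GC trend (0.68). SQSTM1, the p62 receptor that is itself degraded by autophagy, was 388.4 and 303.6 CPM in LNCaP-EV and 505.0 and 461.2 CPM in LNCaP-RRM2. Its log2 fold change of 0.48 (SE 0.13, edgeR adjusted p = 0.0317) passed the p threshold and not the fold limit, and without LNCaP-EV replicate 1 it was 0.66 and called, while after removal of the GC trend it was 0.19. TAX1BP1 was 190.7 and 206.4 CPM against 139.7 and 149.5 CPM, a log2 fold change of -0.46 (edgeR adjusted p = 0.00808) within the fold limit. NBR1 had a log2 fold change of -0.18 (adjusted p = 0.0923). All 4 receptors had separate groups, with OPTN and SQSTM1 above and TAX1BP1 and NBR1 below. Most genes had separate groups, as 34.5% of all genes tested lay above and 40.9% below in this way.

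The differences between the libraries of a group followed the GC content of the transcripts, and the difference between the groups did so too. Over all genes tested, replicate 1 of LNCaP-EV relative to replicate 2 had a median log2 ratio of -0.11 in the lowest GC decile and 0.67 in the highest. The median difference between the groups was -0.22 in the lowest decile and 0.51 in the highest. Of the 40 genes, 13 had a transcript GC content of 55% or more. In these the LNCaP-EV replicate ratio had a median of 0.44 and was positive in 12 of 13, and the group difference had a median of 0.33, which became -0.11 after each library's GC trend was removed. In the 27 genes below 55% the medians were -0.09 between the LNCaP-EV replicates and -0.18 between the groups, and -0.12 after removal. Removal also moved the median over all genes tested, from -0.026 to -0.114, and over the 40 genes from -0.145 to -0.117. The medians of both GC sets after removal therefore lay close to that of all genes. ATG9B, at 63.0% GC, had a replicate ratio of -0.04 in LNCaP-EV. After removal of the trend ATG9B and OPTN were called higher and GABARAP, MAP1LC3A and ATG101 lower. ATG9B, OPTN and GABARAP were thus called both with and without the trend. Calls over all genes tested went from 1899 higher and 1207 lower to 1678 higher and 1586 lower with this removal.

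**Figure D4:**
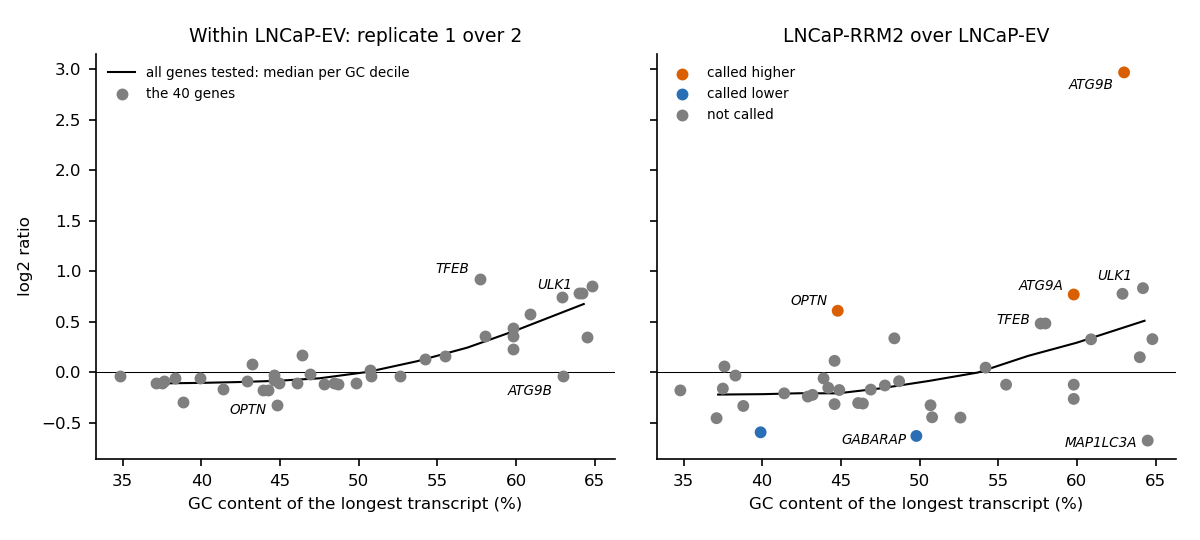
Log2 ratio of each of the 40 genes against the GC content of its longest transcript (percent), between the LNCaP-EV replicates (left) and between the groups (right), with the median of all genes tested in each GC decile as a line. The line rises from -0.11 to 0.67 on the left and from -0.22 to 0.51 on the right. On the left ATG9B lies below the line, and on the right it lies far above it at 2.97, while MAP1LC3A lies below it at -0.68.

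Further genes of the pathway were read from the same fit. Of 22 other machinery genes (median log2 fold change -0.20), 1 was higher (4.55%, against 12.5% of all genes) and 0 were lower (against 7.96%). Here 13 had an unadjusted p below 0.05, a threshold at which the share of all genes was not taken. By adjusted p without the fold limit 2 were higher (9.09%, against 17.8% of all genes) and 6 lower (27.3%, against 24.4%). DESeq2 called 3 higher and limma-voom 1, and both called 0 lower. The higher gene was TMEM41B, an ER scramblase needed for autophagosome growth, at 67.5 and 75.3 CPM in LNCaP-EV and 123.9 and 130.5 CPM in LNCaP-RRM2 (log2 fold change 0.83, SE 0.08, edgeR adjusted p = 0.00309), and it was called under every alternative run. Of 16 tested selective autophagy receptors (median 0.40), RETREG1, an ER-phagy receptor (0.70, edgeR adjusted p = 0.00424), and CALCOCO1 (0.61, adjusted p = 0.0133) were higher and CALCOCO2, the NDP52 receptor (-0.64, adjusted p = 0.00502), was lower. These were 12.5% and 6.25% of the list, against 12.5% and 7.96% of all genes, and DESeq2 called 3 higher and 1 lower. CALCOCO1 and RETREG1 lost the call on the p threshold without LNCaP-RRM2 replicate 1 (0.69 and 0.71) or 2 (0.50, also under the fold limit, and 0.67). CALCOCO2 was under the fold limit when LNCaP-EV replicate 2 (-0.55) or replicate 1 of LNCaP-RRM2 (-0.57, also over the p threshold) was left out. CALCOCO2 was also under the fold limit with total counts (-0.58), upper-quartile factors (-0.56) and the stricter filter (-0.55), and after removal of the GC trend both CALCOCO2 (-0.57) and CALCOCO1 (0.54) were. Without the fold limit 9 of these 16 receptors were higher (56.2%, against 17.8% of all genes) and 2 were lower (12.5%, against 24.4%). Of 34 tested upstream regulators (median -0.10), SESN3 (1.15, edgeR adjusted p = 0.00223), SESN1 (0.69, adjusted p = 0.00313), both stress-induced inhibitors of mTORC1, and DRAM2 (0.59, adjusted p = 0.0189) were higher (8.82%, against 12.5% of all genes), and 0 were lower (against 7.96%). Of these regulators 17 had an unadjusted p below 0.05, again without a share of all genes. By adjusted p without the fold limit 5 were higher (14.7%, against 17.8% of all genes) and 7 lower (20.6%, against 24.4%). DESeq2 called 4 higher and limma-voom 3, and both called 0 lower. SESN3 was called under every alternative run. SESN1 missed the threshold without LNCaP-RRM2 replicate 1 (adjusted p = 0.0509), and DRAM2 was under the fold limit without LNCaP-EV replicate 1 (0.42) and over the p threshold when LNCaP-RRM2 replicate 1 (adjusted p = 0.129) or 2 (adjusted p = 0.108) was left out.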

How the data were processed

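RNA was measured in 4 libraries, grouped by their titles. The authors analysed paired-end reads in Partek Flow and deposited estimated counts for each gene, unscaled between libraries. The aligner, build, annotation and strand setting were not given in the sources used here. These values were whole in 56.1% to 58.0% of genes and were rounded before testing. Genes were matched to GENCODE 29 by symbol (16246 of 17141, 16233 of them overlapping in position), which gave GC content for 94.7%. The table held genes with at least 10 counts in all.

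Genes were filtered with filterByExpr (15162 left), scaled by TMM and tested with edgeR 4.0.16 (R 4.3.3, quasi-likelihood F-test, no covariates), with Benjamini-Hochberg adjustment over all of them. Calls needed an adjusted p under 0.05 and a difference of more than 1.5-fold, as in the study. The exact permutation test was not used because 2 against 2 libraries is too few for it to pass. Counts of replicates differed by more than sampling noise (chi-square over its degrees of freedom 23.0 for LNCaP-EV and 7.76 for LNCaP-RRM2), so each was kept as a sample.

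The 40 genes and the other lists were chosen with earlier results of these data known. All 40 were accounted for, and of the other lists those called at a mean level of 1 CPM or more were named, at most 6 per list. Alternatives were DESeq2 size factors, total counts and upper-quartile factors, no filter, a stricter filter (1 CPM in 2 libraries and a mean of 5 CPM), DESeq2 1.42.0, limma-voom (limma 3.58.1), a replicate block, removal of each library's GC trend (lowess, span 0.3), both together, each library left out, and no fold limit. Counting ATG9B and NOS3 as 1 locus was added after seeing the data. Some markers of the line are not reported here. The scripts were tested on simulated data.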

Additional observations from a re-analysis of the deposited data

How the results depend on the processing

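Of 559 recomputed log2 fold changes of the 40 genes, 490 kept their direction and side of the threshold. Members called higher were 3, and 5 with DESeq2 size factors, total counts, upper-quartile factors, no low-count filter or no fold limit, and 1 to 8 without 1 library. Members called lower were 2, and 1 with DESeq2 size factors or the DESeq2 test, 0 with total counts, upper-quartile factors or the stricter filter, 8 with no fold limit, and 0 to 2 without 1 library. Of the further pathway lists 6 were higher, and 11 with DESeq2 size factors or total counts, 12 with upper-quartile factors, 13 with the stricter filter, 10 with DESeq2, 16 with no fold limit, and 2 to 10 without 1 library. In these lists 1 was lower, and 0 with total counts, upper-quartile factors or the stricter filter, 3 after GC removal, 15 with no fold limit, and 0 to 3 without 1 library. The share of ATG9B in the ATG9 counts was 1.52% to 2.10% in LNCaP-EV and 7.38% to 7.87% in LNCaP-RRM2 by library. ATG16L2 and MAP1LC3A were removed by the stricter filter and have no value under it. Signs turned only in genes that were not called in the reported test. After GC removal ATG2A was -0.421, ATG4B -0.109, ATG4D -0.265, WIPI2 -0.088, PIK3C3 0.062 and PIK3R4 0.014. The median of all genes tested was -0.114 after GC removal, with or without the replicate block. PIK3C3 was 0.007 with DESeq2 size factors, 0.029 with total counts, 0.043 with upper-quartile factors and 0.059 with the stricter filter, PIK3R4 0.001, 0.014 and 0.03 with the last 3 of these, and MAP1LC3B 0.003 with the stricter filter. Without 1 library ATG2A was -0.14 to 0.575, RB1CC1 -0.003 to 0.145, PIK3C3 -0.079 to 0.04, PIK3R4 -0.166 to 0.076 and MAP1LC3B -0.167 to 0.019. For every change other than those from fewer samples, fewer genes or the absent fold limit, the cause was not tested.

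With the replicate number as a block, 5 members were higher (ULK1 and ATG16L2 added) and 2 lower, and in the further lists 2 were lower. With the block and GC removal together, 3 of these lists' genes were lower and ATG2A was -0.421, ATG4B -0.111, ATG4D -0.268, WIPI2 -0.089, PIK3C3 0.062 and PIK3R4 0.014. Same-numbered libraries deviated together (correlation 0.30), but the labels do not say that a number marks a shared batch and there are 2 pairs, so the libraries share only a number. With a lone library in 1 group, that library is assumed to vary like the other group. Calls over all genes tested shifted with the library left out too, so a change in the number of members called this way is not particular to the members. Single genes could differ from that shift, as OPTN did (0.607 with all libraries, 0.436 without LNCaP-EV replicate 1). Depth limits MAP1LC3A (41 and 33 counts in LNCaP-RRM2) and ATG9B in LNCaP-EV (38 and 33 counts).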

Other observations

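Genes next to ATG9B on chromosome 7 were read beside it. SLC4A2, an anion exchanger, was 76.4 and 46.3 CPM in LNCaP-EV and 133.6 and 110.3 CPM in LNCaP-RRM2 (log2 fold change 0.99, SE 0.24, edgeR adjusted p = 0.0248), and 0.54, under the fold limit, after removal of the GC trend. Its call was also lost without LNCaP-RRM2 replicate 1 (adjusted p = 0.115) or 2 (adjusted p = 0.0634), and the value was 1.38 and 0.72 without LNCaP-EV replicate 1 and 2. ABCB8, a mitochondrial transporter, was 34.5 and 19.9 CPM against 46.9 and 37.6 CPM (0.63, adjusted p = 0.109). ASIC3 and CDK5 had log2 fold changes of 0.37 and 0.05 (adjusted p = 0.469 and 0.777). Of these 5 neighbours, NOS3 included, 2 were called higher by edgeR (against 12.5% of all genes) and 3 by DESeq2.

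Fractional counts whose sums with the overlapping gene on the opposite strand were whole within 0.02 in all 4 libraries also occurred for ATG12 with AP3S1, ATG4D with KRI1, WIPI1 with ARSG and BECN1 with CNTD1, and in 3 libraries for ATG7 with VGLL4. AP3S1 had a log2 fold change of -0.40 (adjusted p = 0.0209) beside -0.16 for ATG12, and VGLL4 had 0.29 (adjusted p = 0.0443) beside -0.45 for ATG7.

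Among the calcineurin subunits, which activate TFEB by dephosphorylation, PPP3CA, PPP3CB and PPP3R1 had log2 fold changes of -0.49, -0.44 and -0.58 (edgeR adjusted p = 0.00607, 0.0113 and 0.0055), each within the fold limit. RHEB, the GTPase that activates mTORC1, was at -0.43 (adjusted p = 0.0177). The receptors of ER-phagy CCPG1, RETREG3, SEC62 and RETREG2 were at 0.56, 0.50, 0.47 and 0.45 (adjusted p = 0.0052, 0.00799, 0.00619 and 0.018), also within the limit. TEX264, of the same list, was at 0.51 (adjusted p = 0.0598) and at -0.01 after removal of the GC trend. The genes of this paragraph were chosen with their values in view.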
